A study of Mus musculus with 281 samples.

Results

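Glutathione peroxidases and glutathione S-transferases are the enzymes that spend glutathione, the main small thiol of the cell, on peroxides and on reactive electrophiles. The members described here were 5 peroxidase genes (*Gpx1*, *Gpx3*, *Gpx4*, *Gpx7* and *Gpx8*) and 5 transferase genes (*Gstm1*, *Gstm2*, *Gstm5*, *Gsta4* and *Gstp1*), that is 10 of the 47752 genes measured. They were picked as a list of family members with earlier results of these data known, and 2 of them, *Gpx3* and *Gstm1*, because their level was lower in pendrin-expressing cells of *Slc26a4*-/- mice. That contrast is therefore given below as a description and carries no test. All 10 genes were found in the gene table.

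The data are full-length Smart-Seq2 profiles of single cells, aspirated one at a time from the collagenase-treated stria vascularis (SV), the epithelium of the lateral cochlear wall that secretes endolymph. There were 69 cells of *Slc26a4*-/- mice (24 to 44 days of age), 40 cells of *Slc26a4*+/- mice (26 to 33 days) and the rest, counted by cell type below, of *Slc26a4*+/+ mice (22 to 42 days), all male and on the 129S6 background, with no other allele or treatment named. *Slc26a4* encodes pendrin, the chloride-bicarbonate exchanger of spindle cells (SCs) and root cells (RCs), and its loss causes deafness with an enlarged vestibular aqueduct. No label names the mouse a cell came from, so each genotype counted as 1 sample, the spread given is between cells, and p-values are given only where collection sessions could stand as samples.

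Peroxidases reduce hydrogen peroxide and lipid hydroperoxides at the expense of reduced glutathione, which glutathione reductase then restores. *Gpx1* encodes the cytosolic enzyme, *Gpx3* the secreted one, and *Gpx4* the enzyme that acts on phospholipid hydroperoxides within membranes and holds ferroptosis in check. Transferases couple glutathione to electrophiles: *Gstm1*, *Gstm2* and *Gstm5* are of the mu class, *Gstp1* is of the pi class, and *Gsta4*, of the alpha class, has a preference for 4-hydroxynonenal, a product of lipid peroxidation. The SV is rich in mitochondria and has a high oxygen demand, and its intermediate cells (IMCs) are pigment cells whose melanin synthesis itself yields reactive quinones.

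The peroxidases fall into selenoenzymes and cysteine enzymes, and this can be read from the coding sequence around the active site. The 5 windows are shown because they tell which members depend on selenium supply, taken up below. Each is the coding strand, 5′ to 3′, from the GRCm38 genome with the GENCODE M21 annotation, with 12 bases on either side and the active-site codon in capitals.
Gpx1: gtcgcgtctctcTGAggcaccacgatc
Gpx3: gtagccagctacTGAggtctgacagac
Gpx4: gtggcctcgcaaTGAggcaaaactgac
Gpx7: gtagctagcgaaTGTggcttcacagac
Gpx8: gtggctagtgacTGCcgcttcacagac
In *Gpx1*, *Gpx3* and *Gpx4* the codon is TGA, annotated there as selenocysteine. In *Gpx7* and *Gpx8*, 2 enzymes of the endoplasmic reticulum, the aligned codon is TGT or TGC, both read as cysteine. The windows lie in exon 1 of *Gpx1* (chr9:108339439-108339465, plus strand), exon 2 of *Gpx3* (chr11:54907244-54907270, plus), exon 3 of *Gpx4* (chr10:80054725-80054751, plus), exon 2 of *Gpx7* (chr4:108403418-108403444, minus) and exon 2 of *Gpx8* (chr13:113045649-113045675, minus).

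The transferases have closer relatives than the peroxidases, which bears on how reads were divided between genes. *Gstm1* (chr3:108012255-108017973, minus strand), *Gstm2* (chr3:107981702-107986453, minus) and *Gstm5* (chr3:107895821-107898686, plus) lie in 1 cluster on chromosome 3. The coding sequences of *Gstm1* and *Gstm2* are 85.9% identical, and those of *Gstm1* and *Gstm5* 69.6%. *Gstp1* (chr19:4035407-4037985, minus) is 98.1% identical to its neighbour *Gstp2*, and 67.5% of the 31-base words of its transcripts also occur in another gene, against 27.05% for *Gstm1*, 12.2% for *Gstm2* and 0.552% for *Gpx3*. The other members shared no such word with another gene. *Gstp1* values are therefore less certain as to the gene, and to a lesser degree those of *Gstm1* and *Gstm2*. *Gpx8* and *Gstm5* each overlap a gene on the opposite strand, and the counts are not said to use strand.

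The cell types were rebuilt by clustering, and the names hold only as far as the markers do. IMC-like cells were 60 *Slc26a4*+/+, 23 *Slc26a4*+/- and 32 *Slc26a4*-/- cells. In the same order of genotypes there were 23, 2 and 9 SC-like cells, 15, 6 and 13 RC-like cells and 14, 2 and 5 marginal cell-like (MC-like) cells. Another 17 cells (11, 4 and 2), whose cluster was led by *Crhbp*, and 60 cells (49, 3 and 8) led by haemoglobin and cell cycle genes stayed without a name. SC-like and RC-like cells together are called pendrin cells. Estimated counts per cell ran from 1848 to 7932729 (median 1312950), and the cells fell into 4 run dates. Of the pigment genes listed as markers, *Tyrp1* and *Pmel* were at or near 0 in IMC-like cells. The targeted gene was found in every genotype: *Slc26a4* averaged 994 CPM (the gene's counts as a share of all counts of the cell, scaled to a total of 1e6) in *Slc26a4*+/+, 554 in *Slc26a4*+/- and 793 in *Slc26a4*-/- pendrin cells. In the same order it averaged 912, 511 and 174.05 CPM in SC-like cells and 1120, 568.06 and 1222 CPM in RC-like cells. At least 10 counts of it were found in 4 of 9 *Slc26a4*-/- SC-like and 7 of 13 *Slc26a4*-/- RC-like cells, so the genotype of a cell rests on its label.

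In *Slc26a4*+/+ mice the cell types of the SV differed in which enzyme of each family they held. Among peroxidases, *Gpx3* made up 86.4% of the summed level of the 5 genes in SC-like cells and 91.8% in MC-like cells, whereas the leading share was that of *Gpx4* in IMC-like cells (72.2%) and RC-like cells (53.7%). Among transferases, *Gsta4* made up 93.1% of the summed level in IMC-like cells, *Gstm1* led in RC-like cells with 40.8%, and *Gsta4* led in MC-like and SC-like cells with 55.2% and 49.3%. These shares are of CPM, which are not scaled to transcript length. In TPM, which are, *Gsta4* was ahead in RC-like cells, at 416.8. The main *Gstm1* transcript, with 90.9% of that gene's TPM, was at 286.1 there. The RC-like and SC-like leads each rested on 1 cell. Without its highest cell *Gstm1* averaged 86.2 CPM in RC-like cells, where *Gsta4* averaged 248.4. In the same way *Gsta4* averaged 134.8 CPM in SC-like cells, where *Gstm2* averaged 155.1. IMC-like cells had the lowest sum of the 5 peroxidases, 833 CPM, and the highest of the 5 transferases, 5920 CPM. RC-like cells had sums of 1178 and 724 CPM, SC-like cells 5007 and 513 CPM, and MC-like cells 6251 and 600 CPM. These shares and sums describe the clusters and were not tested, since the clusters were made from the same cells.

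**Figure D1:**
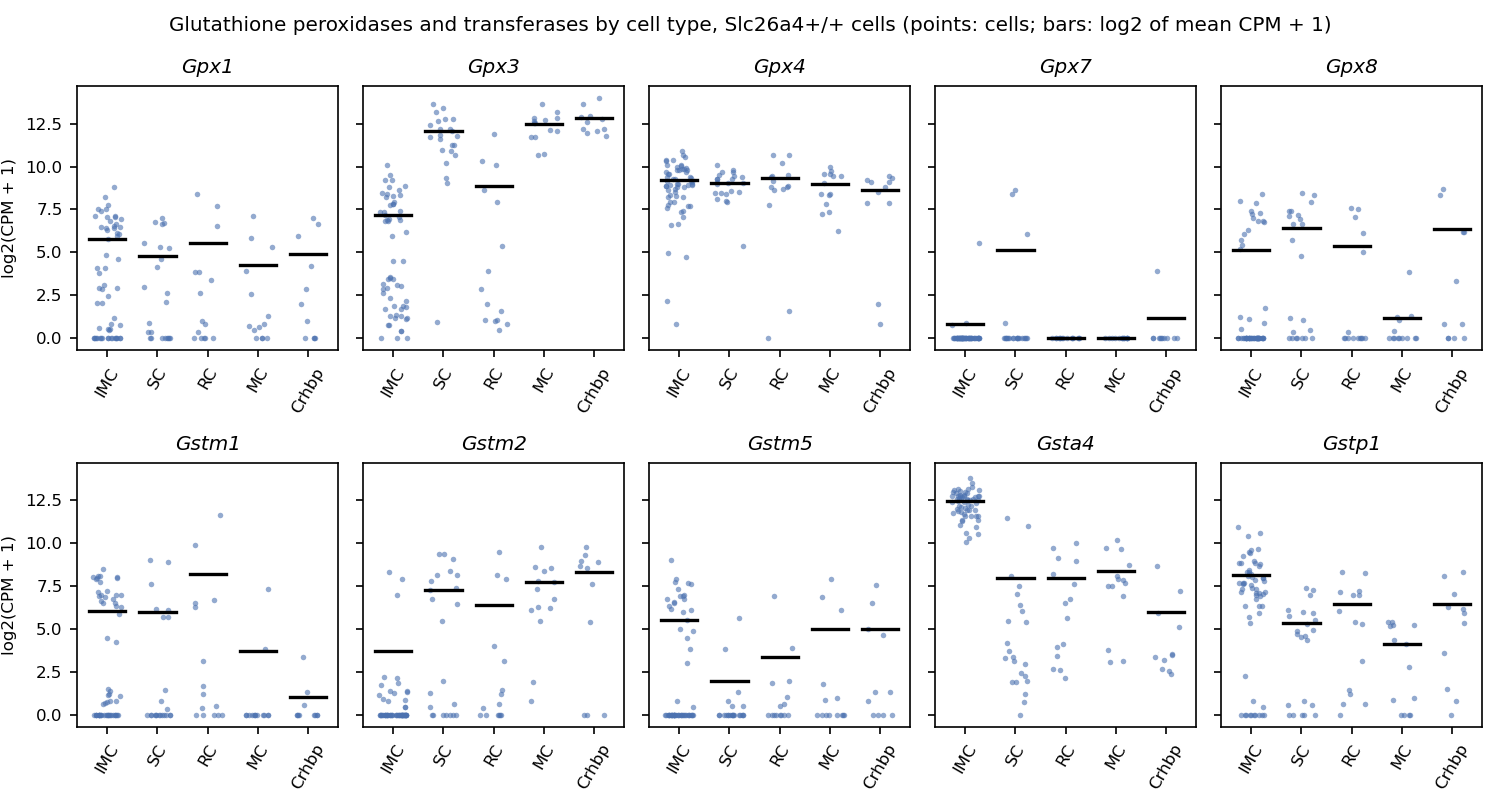
Levels of the 10 genes in *Slc26a4*+/+ cells by cell type, on the vertical axis as log2(CPM + 1), with a point for each cell and a bar at the log2 of the mean CPM plus 1; Crhbp is the unnamed cluster led by that gene. *Gsta4* was high in IMC-like cells, *Gpx3* in SC-like, MC-like and Crhbp cells, and *Gpx4* was at a like level in all 5 groups.

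*Gpx3* differed most between cell types among the peroxidases. Its mean was 5736 CPM in MC-like cells (SD 2989, n = 14), 4326 in SC-like cells (SD 3375, n = 23), 459 in RC-like cells (SD 1011, n = 15) and 141.8 in IMC-like cells (SD 215.3, n = 60). It was above 100 CPM in 14 of 14 MC-like and 22 of 23 SC-like cells, but in 5 of 15 RC-like cells, so root cells split into cells with and without it. In the unnamed *Crhbp* cluster its mean reached 7171 CPM over 11 cells, with 3466 as the lowest. The step from SC-like to RC-like cells, 3.23 on the log2 scale, was larger than the SD of 2.86 between the means of collection sessions (cells of 1 run date, day number, genotype and age), while MC-like from SC-like and RC-like from IMC-like cells did not differ beyond that spread.

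*Gpx4*, by contrast, was near a common level: RC-like cells averaged 633 CPM (SD 499), IMC-like cells 602 (SD 430), SC-like cells 535 (SD 246.6) and MC-like cells 496 (SD 303.2). No 2 neighbours in that order differed beyond the spread between sessions. It had at least 10 counts in 58 of 60 IMC-like cells and 14 of 14 MC-like cells. *Gpx1* was low throughout, from 54.8 CPM in IMC-like to 18.4 in MC-like cells, again with no step beyond the spread. Per transcript length, in TPM, the order of the selenoenzymes in IMC-like cells was *Gpx4* 1207, *Gpx3* 151.6 and *Gpx1* 98.1, and in SC-like cells *Gpx3* 4396, *Gpx4* 1051 and *Gpx1* 44.9.

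The cysteine enzymes were scarcer. *Gpx8* had its highest mean in SC-like cells (84.4 CPM), followed by RC-like cells (40.5), IMC-like cells (33.9) and MC-like cells (1.26), and only the last step (3.95 on the log2 scale, SD 2.08) was beyond the spread between sessions. *Gpx7* was found in 4 of 23 SC-like cells, with a mean of 34.9 CPM and 392 CPM in the highest cell, and in 3 of 60 IMC-like cells. No count of it was seen in the 15 RC-like or the 14 MC-like cells, where 3 counts over the group would be 0.153 and 0.140 CPM.

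*Gsta4* was the transferase of IMC-like cells. Over 60 IMC-like cells it ran from 1078 to 14131 CPM, with a mean of 5511 (SD 2618), and no other member was above 1000 CPM in every cell of a named type other than *Gpx3* in MC-like cells, whose lowest value was 1629. In the other types its means were 331 (MC-like), 252.7 (SC-like) and 248.4 CPM (RC-like). The step from IMC-like to MC-like cells, 4.05 on the log2 scale, was far larger than the SD of 0.955 between sessions. In SC-like cells the mean rested on few cells: the median was 9.28 CPM, and the highest cell, at 2847 CPM, held 48.98% of the sum.

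The pi and mu classes followed other patterns. *Gstp1* was highest in IMC-like cells (285.5 CPM, SD 377), ahead of root (87.7), spindle (40.1) and marginal cell-like cells (16.7). The steps from IMC-like to RC-like and from SC-like to MC-like cells were beyond the spread between sessions. *Gstm2* had the reverse order, going from 209.3 CPM in MC-like cells (SD 231.99) through 155.1 in SC-like cells (SD 215.7) and 83.3 in RC-like cells (SD 194.4) to 11.9 in IMC-like cells (SD 53.8), and only the last step was beyond that spread. It averaged 317 CPM in the *Crhbp* cluster. *Gstm1* was highest in RC-like cells at 295.3 CPM, before IMC-like cells at 65.3, SC-like cells at 61.7 and MC-like cells at 12.3, with no step beyond the spread. *Gstm5* was highest in IMC-like cells at 45.5 CPM, before MC-like cells at 30.8, RC-like cells at 9.49 and SC-like cells at 2.86, and the last step was beyond the spread. The 3 mu genes thus had their highest means in 3 different cell types, though for *Gstm1* and *Gstm5* the leading type did not stand clear of the next.

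Each member was also compared with 4553 other genes over the named cells with at least 100000 counts, which left out 3 of them, by Spearman correlation across cells of all types and genotypes. *Gsta4* was most like *Car14* (rho 0.83), *Sepp1* and *Hpse* (0.81 each). *Gstp1* was most like *Sepp1*, *Phlda1* and *Dct* (0.61 each), the last a melanin-synthesis enzyme. Among the genes most like *Gpx3* were *Lrp2* (0.66) and *Atp1b2* (0.60), genes of endocytosis and sodium pumping in marginal cells. *Gstm2* was most like the tight junction gene *Cldn9* (0.53), *Rbm47* (0.50) and *Abcg1* (0.49). For the other members no gene passed 0.39, which in sparse counts is no finding, and *Gpx7* was too low to compare. These correlations mostly restate the cell types, and the cells share libraries and depth.

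In pendrin cells, 5 of the 10 members (*Gpx3*, *Gpx7*, *Gpx8*, *Gstm1* and *Gsta4*) were at least 2-fold lower in *Slc26a4*-/- than in *Slc26a4*+/+ mice and *Gstm5* was at least 2-fold higher, on the scale of log2(mean CPM + 1). All 10 had a mean of at least 10 CPM over the genotypes. *Gpx7* and *Gstm1* had it through the *Slc26a4*+/+ cells alone, and *Gstm5* through the *Slc26a4*-/- cells alone. Of all 9565 genes at that level, 19.5% were 2-fold lower and 14.6% 2-fold higher, and the median log2 ratio was −0.94 for the members and −0.10 for all genes. The list was chosen in part on this contrast, so nothing is read from the count. Within run date 2, with 3 *Slc26a4*+/+ cells, 4 of 9 members were lower and 2 higher, beside 24.4% and 51.3% of genes; within run date 4, with 8 *Slc26a4*+/+ and 7 *Slc26a4*-/- cells, 4 of 9 were lower and 1 higher, beside 26.9% and 26.7%. The ratios also run together with the sequencing: all 9 *Slc26a4*-/- SC-like cells were of run date 2, which held 2 of the 23 *Slc26a4*+/+ SC-like cells, and the *Slc26a4*-/- pendrin cells held 9 SC-like to 13 RC-like cells against 23 to 15. SC-like and RC-like cells are therefore given apart.

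*Gpx3*, the secreted peroxidase, was lower in *Slc26a4*-/- cells of both types. In SC-like cells it ran from 0.928 to 12989 CPM in *Slc26a4*+/+ mice, with a median of 3489 and a mean of 4326. It was 513 and 10862 CPM in the 2 *Slc26a4*+/- cells. In the 9 *Slc26a4*-/- cells the lowest value was 0, the median 270 and the highest 2414 CPM, with a mean of 534 (SD 793). Thus 15 of the 23 *Slc26a4*+/+ cells lay above every *Slc26a4*-/- cell, and the log2 ratio of the means was −3.02. Within run date 2 the comparison has only 2 *Slc26a4*+/+ cells, at 0.928 and 3489 CPM, which lie on either side of the *Slc26a4*-/- mean (log2 ratio −1.71). *Gpx3* was not absent from these cells, as 5 of the 9 had more than 100 CPM.

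The SC-like cells of the 2 genotypes also differed in their markers. The summed level of the 11 SC markers had a median of 47087 CPM in *Slc26a4*+/+ (12223 to 126061) and 9669 CPM in *Slc26a4*-/- cells (4537 to 36622). That of the 11 MC markers had medians of 7549 (1502 to 40981) and 18183 CPM (14525 to 36131). Among the SC markers *Wfdc18* had the highest mean in *Slc26a4*+/+ cells, 20200 CPM, against 610 in *Slc26a4*-/- cells. *Cldn4* (494 and 1439 CPM) and *Dpp10* (19.2 and 65.2 CPM) had higher means in *Slc26a4*-/- cells, and the other SC markers had lower ones. All SC markers were detected in both genotypes, and *Slc22a4* was the MC marker at 0 in *Slc26a4*-/- cells. The *Gpx3* mean of *Slc26a4*-/- MC-like cells was 3395 CPM, above that of the *Slc26a4*-/- SC-like cells. Depth was also lower in these, with a median of 561315 counts against 1820555. The part of the markers and of the depth in the *Gpx3* difference was not tested.

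In RC-like cells the median level of *Gpx3* was under 100 CPM in every genotype. It ran from 0.394 to 3794 CPM in *Slc26a4*+/+ cells (median 6.34, mean 459), from 0.662 to 794 in *Slc26a4*+/- cells (median 77.04, mean 228.5) and from 0 to 733 in *Slc26a4*-/- cells (median 2.04, mean 59.6). Cells above 100 CPM were 5 of 15, 3 of 6 and 1 of 13. The *Slc26a4*-/- mean rested on 1 cell, which held 94.7% of the sum, and was 3.40 CPM without it. The medians of *Slc26a4*+/+ and *Slc26a4*-/- cells were close, so the difference lay in the cells with a high level. The log2 ratio was −2.93.

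Run date 4 held RC-like cells of all 3 genotypes, and there *Gpx3* reached 1091 CPM in the highest of 5 *Slc26a4*+/+ cells and 794 in the highest of 6 *Slc26a4*+/- cells, but 14.0 CPM in the highest of 7 *Slc26a4*-/- cells. The means were 299, 228.5 and 3.30 CPM. These *Slc26a4*-/- cells were the deeper ones, with a median of 2620021 counts against 788847 in the *Slc26a4*+/+ cells. The RC markers summed to medians of 16759, 21321 and 23668 CPM in the RC-like cells of *Slc26a4*+/+, *Slc26a4*+/- and *Slc26a4*-/- mice over all run dates, and the MC markers to 6245, 2369 and 2963 CPM.

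*Gstm1* was not found above a few counts in mutant pendrin cells. It had at least 10 counts in 12 of 38 *Slc26a4*+/+ cells, in none of the 8 *Slc26a4*+/- cells, which allows a share of up to 37.5%, and in none of the 22 *Slc26a4*-/- cells, which allows up to 13.6%. These limits cover the counting of cells only, and the cells share sessions. The total counts were 4361, 2 and 9. In SC-like cells the *Slc26a4*+/+ values ran from 0 (also the median) to 507 CPM with a mean of 61.7, the *Slc26a4*+/- values were 0 and 2.14 CPM, and the highest *Slc26a4*-/- value was 4.91 CPM. In RC-like cells the *Slc26a4*+/+ values ran from 0 to 3222 CPM (median 1.27, mean 295.3), and no *Slc26a4*+/- or *Slc26a4*-/- cell was above 2.15 CPM. The expressing cells were therefore a minority of the *Slc26a4*+/+ cells, and the typical cell had little or none in any genotype.

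A single cell weighed heavily in the size of this difference. The RC-like cell at 3222 CPM held 72.7% of the *Slc26a4*+/+ RC-like sum, and without it the mean was 86.2 CPM in RC-like and 71.004 in all pendrin cells. Within run date 4, where *Slc26a4*+/+ RC-like cells averaged 22.5 CPM (highest 100.8 of 5 cells) and SC-like cells 17.1, 1 cell of each type had at least 10 counts. The 8 *Slc26a4*+/- cells, all of run date 4, were as low as the *Slc26a4*-/- cells. The median depth of *Slc26a4*-/- cells was above that of *Slc26a4*+/+ cells in RC-like cells, 2140195 against 994100 counts, and below it in SC-like cells, 561315 against 1820555, and its part in the *Gstm1* difference was not tested. IMC-like cells differed from this, as *Gstm1* was found in all 3 genotypes: at least 10 counts were found in 25 of 60 *Slc26a4*+/+, 12 of 23 *Slc26a4*+/- and 12 of 32 *Slc26a4*-/- cells, with means of 65.3, 118.5 and 36.6 CPM.

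**Figure D2:**
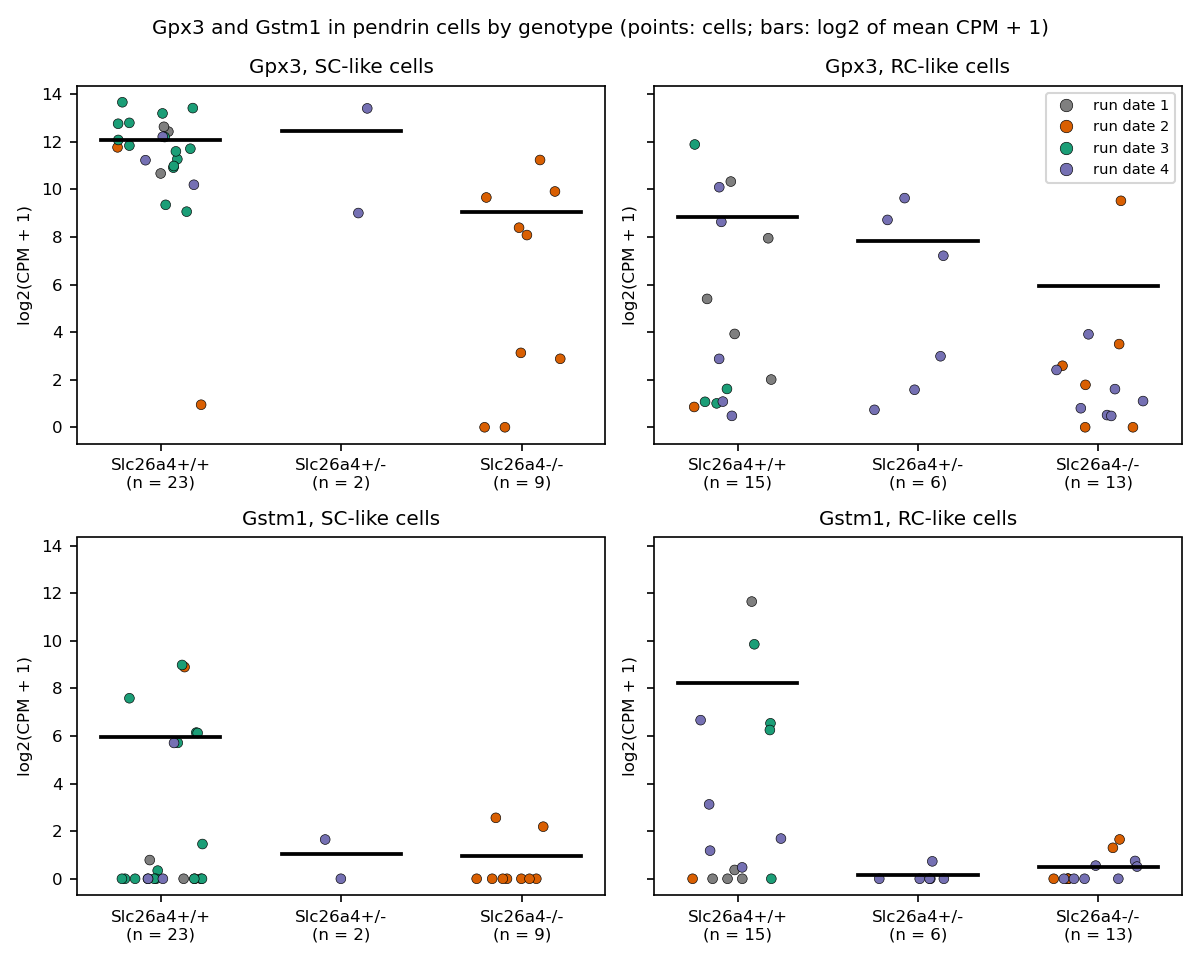
*Gpx3* (top) and *Gstm1* (bottom) in SC-like (left) and RC-like (right) cells by genotype, as log2(CPM + 1) on the vertical axis, with a point for each cell coloured by run date and a bar at the log2 of the mean CPM plus 1. All SC-like *Slc26a4*-/- cells are of run date 2, and no mutant cell reaches 5 CPM of *Gstm1*, while 12 of 38 *Slc26a4*+/+ cells have at least 10 counts.

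Of the other peroxidases, *Gpx4*, *Gpx7* and *Gpx8* had lower means in *Slc26a4*-/- SC-like cells and *Gpx1* did not. *Gpx4* averaged 535 CPM in *Slc26a4*+/+ SC-like cells (40.7 to 1078), 534 in *Slc26a4*+/- and 262.4 in *Slc26a4*-/- cells (11.6 to 863), and 633, 418 and 397 CPM in RC-like cells, so its ranges overlapped widely. *Gpx8* averaged 84.4 CPM in *Slc26a4*+/+, 52.6 in *Slc26a4*+/- and 10.3 in *Slc26a4*-/- SC-like cells, and 10 of the 23 *Slc26a4*+/+ cells lay above the highest *Slc26a4*-/- cell. Both *Slc26a4*+/+ SC-like cells of run date 2, the run of all *Slc26a4*-/- SC-like cells, were at 0 CPM, so the direction was reversed within that run. In RC-like cells it averaged 40.5, 125.7 and 43.5 CPM. *Gpx7* had no count in the 9 *Slc26a4*-/- SC-like cells, where 3 counts would be 0.624 CPM. The pooled counts of the *Slc26a4*+/+ cells gave 36.9 CPM, a level that came from 4 of 23 cells. By the counting of cells alone, none of 9 allows a share of up to 33.3% with *Gpx7*, so no size of the difference is given. *Gpx1* averaged 26.8 and 27.1 CPM in *Slc26a4*+/+ and *Slc26a4*-/- SC-like cells and 45.3 and 72.5 in RC-like cells.

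Of 9 members with a mean of at least 10 CPM in SC-like cells, 6 were 2-fold lower and 1 was 2-fold higher in *Slc26a4*-/- mice, beside 30.5% and 21.6% of 9125 genes. In RC-like cells 3 of 9 were lower and 1 was higher, beside 25.3% and 22.4% of 9054 genes. The medians of the members were −1.81 and −0.67, those of all genes −0.18 and −0.04. These contrasts are parts of the one by which the list was chosen, so nothing is read from the counts or medians. In SC-like cells *Gpx7* and *Gstm1* passed the filter through the *Slc26a4*+/+ cells alone. In RC-like cells *Gstm1* did so too, and *Gstm5* passed through the *Slc26a4*-/- cells alone. *Gsta4* was among the lower members in both types: it averaged 248.4 CPM in *Slc26a4*+/+ and 45.2 in *Slc26a4*-/- RC-like cells, and 252.7 and 71.1 CPM in SC-like cells, where the medians, 9.28 and 37.4 CPM, had the opposite order. *Slc26a4*+/- RC-like cells averaged 69.9 CPM. The IMC markers, in whose cells *Gsta4* is high, summed to a median of 1300 CPM in *Slc26a4*+/+ and 2488 CPM in *Slc26a4*-/- RC-like cells, the opposite direction, and their part in the *Gsta4* difference was not tested.

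The remaining transferases were not 2-fold lower in either type. *Gstm2* averaged 155.1, 99.5 and 312 CPM in SC-like cells of *Slc26a4*+/+, *Slc26a4*+/- and *Slc26a4*-/- mice and 83.3, 90.3 and 101.8 CPM in RC-like cells. The 2 *Slc26a4*+/+ SC-like cells of run date 2 averaged 1.43 CPM, and the log2 ratio in pendrin cells, 0.56, became 6.80 within that run and 5.36 with medians. It had at least 10 counts in 16 of 38 *Slc26a4*+/+ and 15 of 22 *Slc26a4*-/- pendrin cells. *Gstm2* thus stayed present in the cells in which its 85.9% identical neighbour *Gstm1* was not found. *Gstm5* averaged 5.48 CPM in *Slc26a4*+/+ and 23.2 in *Slc26a4*-/- pendrin cells, with at least 10 counts in 3 of 38 and 6 of 22 cells. *Gstp1* averaged 58.9, 71.96 and 59.98 CPM in pendrin cells of the 3 genotypes.

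*Slc26a4*+/- pendrin cells allowed a comparison within run date 4, with 8 *Slc26a4*+/+, 8 *Slc26a4*+/- and 7 *Slc26a4*-/- cells, the last all RC-like. Between *Slc26a4*+/- and *Slc26a4*+/+ cells, *Gstm1* (0.350 against 20.5 CPM) and *Gsta4* (150.5 against 336) were 2-fold lower and no member of the 8 that passed was 2-fold higher, beside 24.5% and 28.6% of 9206 genes. *Gstm1* passed the filter through the *Slc26a4*+/+ cells alone. *Gpx3* averaged 1593 CPM in *Slc26a4*+/- and 1228 in *Slc26a4*+/+ cells, but a single SC-like cell held 85.2% of the *Slc26a4*+/- sum. Between *Slc26a4*-/- and *Slc26a4*+/- cells 3 of 8 members (*Gpx3*, *Gpx8* and *Gsta4*) were lower and *Gstm5* was higher, beside 25.5% and 20.8% of 9125 genes. In the RC-like cells alone *Gpx3* averaged 3.30 CPM in *Slc26a4*-/- against 228.5 CPM in *Slc26a4*+/- cells. Few *Slc26a4*+/+ cells of that run had at least 10 counts of *Gstm1*, and the *Gpx3* means rested on few high cells. These cells therefore cannot tell which of the other genotypes the *Slc26a4*+/- cells are like for either gene. The comparisons share the *Slc26a4*+/- cells.

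In IMC-like cells, which hardly express *Slc26a4* (0.92 CPM in *Slc26a4*+/+ cells), 1 of the 8 members that passed the filter was 2-fold lower in *Slc26a4*-/- mice, *Gpx8*, and none was 2-fold higher, beside 15.8% and 10.3% of 8901 genes. *Gsta4*, the main transferase of these cells, averaged 5511 CPM in *Slc26a4*+/+ (SD 2618, 1078 to 14131), 6633 in *Slc26a4*+/- (SD 2537) and 3050 in *Slc26a4*-/- cells (SD 1580, 689 to 6284), a log2 ratio of −0.85. Of the *Slc26a4*+/+ cells, 22 of 60 lay above the highest *Slc26a4*-/- cell, and 2 of the 32 *Slc26a4*-/- cells lay above the *Slc26a4*+/+ median. The lower level was seen in both run dates that held the 2 genotypes: 4069 against 2296 CPM in run date 2 and 7186 against 4489 in run date 4, where the *Slc26a4*+/- cells averaged 6633 CPM. The 14 IMC markers summed to medians of 56111, 90266 and 83918 CPM in IMC-like cells of the 3 genotypes in the order +/+, +/- and -/-. *Dct* made up most of this sum, with means of 33291 CPM in *Slc26a4*+/+ and 56235 in *Slc26a4*-/- cells, while 4 of the 14 markers, *Tyr* among them, had lower means in *Slc26a4*-/- cells. The part of the markers in the *Gsta4* difference was not tested. Within run date 2, 2 of 9 members were 2-fold lower and 2 higher, beside 23.9% and 24.2% of genes, and within run date 4 none of 8, beside 21.2% and 20.9%.

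Collection sessions may hold different mice, and their means were compared as samples. The *Gsta4* means of run date 4 were 5659, 7424 and 8046 CPM in 3 *Slc26a4*+/+ sessions, 6557, 6890 and 7145 in 3 *Slc26a4*+/- sessions, and 4110 and 4791 in 2 *Slc26a4*-/- sessions. Every *Slc26a4*-/- session of that run lay below the others. In run date 2 they were 2010, 3227 and 6111 CPM in 3 *Slc26a4*+/+ and 1321, 1955, 2097, 2395 and 4067 CPM in 5 *Slc26a4*-/- sessions, which overlapped. With run date as a term, limma gave a log2 difference of −0.63 (SE 0.22) for 7 *Slc26a4*-/- against 6 *Slc26a4*+/+ sessions, with an unadjusted p of 0.0068 and an adjusted p of 0.208 over 8672 genes, so it did not pass.

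*Gstp1* was higher in *Slc26a4*-/- IMC-like cells, at 483 CPM (SD 423) against 285.5 (SD 377) in *Slc26a4*+/+ and 334 (SD 262.3) in *Slc26a4*+/- cells. In run date 2 the session means were 73.04, 87.1 and 148.1 CPM in *Slc26a4*+/+ and 245.5, 362, 373, 448 and 597 CPM in *Slc26a4*-/- mice, without overlap. In run date 4 they were 416, 624 and 802 CPM in *Slc26a4*+/+, 257.6, 334 and 534 in *Slc26a4*+/- and 500 and 671 CPM in *Slc26a4*-/- mice, and overlapped fully. *Gstp1* also differed between run dates within 1 genotype: the *Slc26a4*+/+ cells averaged 107.95 CPM in run date 2 and 641 in run date 4. The limma difference was 1.19 (SE 0.49, unadjusted p 0.0213, adjusted p 0.294).

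**Figure D3:**
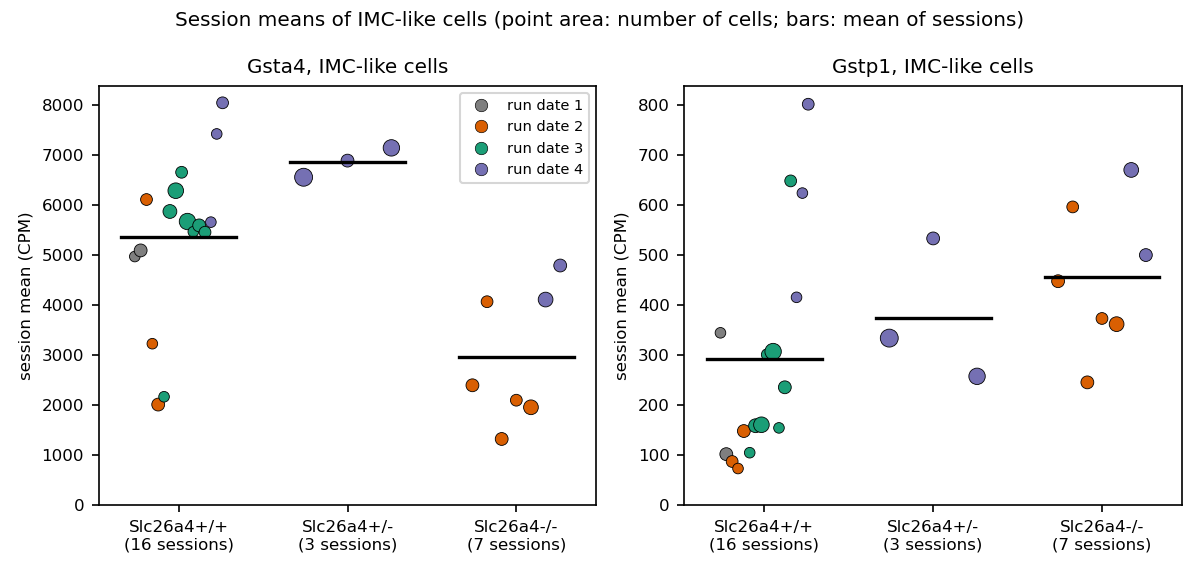
Mean CPM of *Gsta4* (left) and *Gstp1* (right) over the IMC-like cells of each collection session with at least 2 such cells, by genotype; point area grows with the number of cells, colour gives the run date, and bars are means of sessions. *Gsta4* session means of *Slc26a4*-/- mice lie between 1321 and 4791 CPM, and *Gstp1* means are lower in run date 2 than in run date 4 for *Slc26a4*+/+ mice.

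No member passed in that test, in which 18 of 8672 genes were higher (0.208%) and 9 lower (0.104%) at an adjusted p under 0.05 and 1146 had an unadjusted p under 0.05. Among members, *Gsta4*, *Gstp1* and *Gpx8* had an unadjusted p under 0.05. *Gpx8* had a difference of −2.98 (SE 1.26, adjusted p 0.311), with cell means of 33.9, 49.8 and 10.9 CPM in *Slc26a4*+/+, *Slc26a4*+/- and *Slc26a4*-/- mice. *Gpx3* had 1.502 (SE 1.13, adjusted p 0.596), *Gstm5* 1.81 (SE 1.202, adjusted p 0.541) and *Gpx4* −0.06 (SE 0.40, adjusted p 0.972). *Gpx1* had 0.56 (SE 1.16, adjusted p 0.878) and *Gstm1* 0.44 (SE 1.36, adjusted p 0.920). With SEs above 1, a 2-fold difference was not detectable for *Gpx1*, *Gpx3*, *Gpx8*, *Gstm1* or *Gstm5*. *Gpx7* and *Gstm2* were under the filter.

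*Slc26a4*+/- IMC-like cells were all of run date 4, and against *Slc26a4*+/+ cells of that run *Gpx3* was the member 2-fold lower, at 24.8 CPM against 158.7 CPM, with none 2-fold higher, beside 19.3% and 20.1% of 8309 genes. It ran from 0.276 to 184.96 CPM in 23 *Slc26a4*+/- cells and from 2.48 to 342 in 7 *Slc26a4*+/+ cells. In *Slc26a4*-/- cells of that run it averaged 89.8 CPM, between the other genotypes. *Gsta4* was at 6633 and 7186 CPM and *Gpx4* at 530 and 652 CPM in *Slc26a4*+/- and *Slc26a4*+/+ cells.

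In MC-like cells, of which 5 were *Slc26a4*-/-, 4 of the 9 members that passed were 2-fold higher (*Gpx8*, *Gstm1*, *Gstm2* and *Gstp1*) and *Gsta4* was 2-fold lower, beside 24.7% and 24.1% of 8247 genes. *Gpx8* passed the filter through the *Slc26a4*-/- cells alone, in which it was then called higher, so nothing is read from its place in the count. *Gpx8* was 9.68 to 163.3 CPM in the 5 *Slc26a4*-/- cells and 0 to 13.4 CPM in the 14 *Slc26a4*+/+ cells, with means of 70.6 and 1.26 CPM, and all 5 had at least 10 counts against none of the 14. The *Slc26a4*-/- cells came from 4 sessions and both run dates, 2 and 4. In SC-like cells *Gpx8* had the opposite direction, and this difference between the types was not tested. *Gpx3* averaged 5736 CPM in *Slc26a4*+/+, 2472 in *Slc26a4*+/- and 3395 in *Slc26a4*-/- MC-like cells, and 8 of the 14 *Slc26a4*+/+ cells lay above the highest *Slc26a4*-/- cell. Within run date 2 the order was the reverse, at 3424 CPM in 4 *Slc26a4*+/+ and 4169 in 2 *Slc26a4*-/- cells, and run date 4 had no *Slc26a4*+/+ MC-like cell. *Gsta4* averaged 331 and 107.6 CPM and *Gpx4* 496 and 914 CPM in *Slc26a4*+/+ and *Slc26a4*-/- cells.

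In the unnamed *Crhbp* cluster *Gpx3* was above 2000 CPM in all 17 cells, of whatever genotype, with means of 7171 (11 *Slc26a4*+/+ cells), 4448 (4 *Slc26a4*+/-) and 3359 CPM (2 *Slc26a4*-/-). *Gstm2* averaged 317, 326 and 261.9 CPM there, and *Gstm1* was not above 9.25 CPM in any cell.

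**Figure D4:**
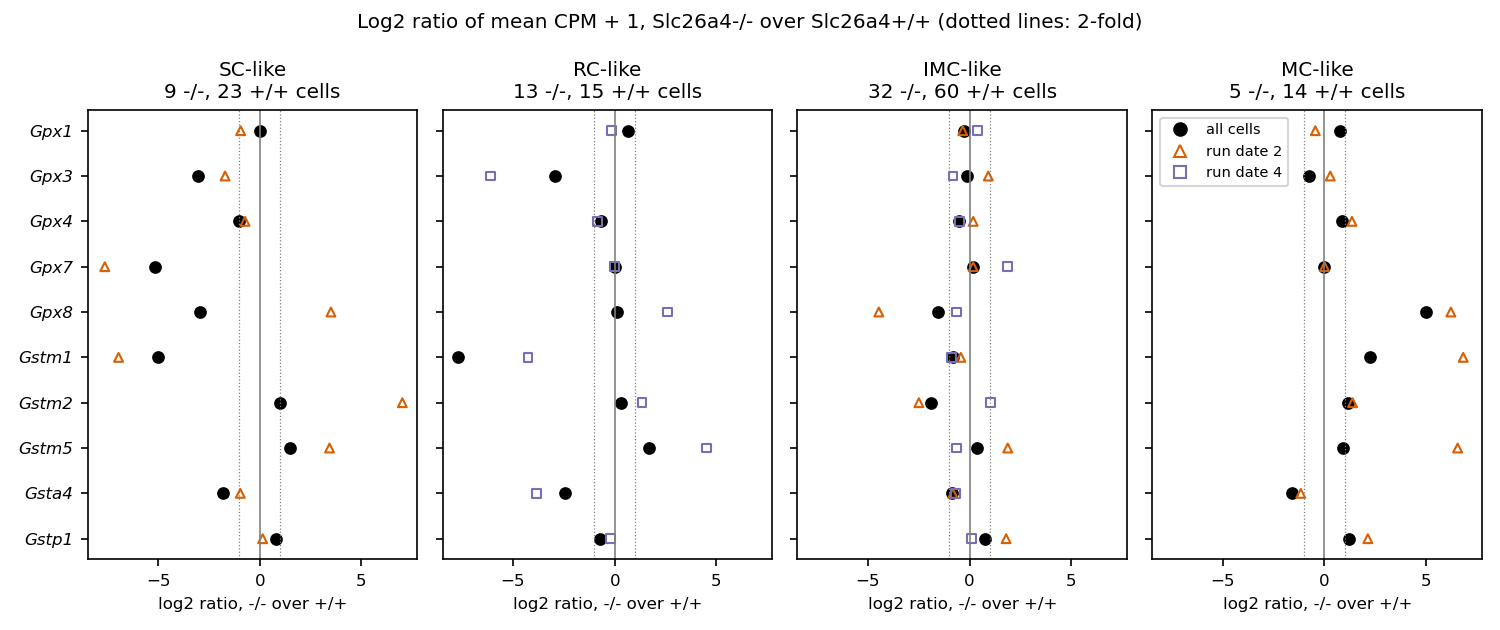
Log2 ratio of mean CPM plus 1, *Slc26a4*-/- over *Slc26a4*+/+, for each member in the 4 cell types, over all cells (filled) and within run dates 2 and 4 where both genotypes had at least 2 cells (open). *Gpx3* and *Gstm1* lie left of 0 in SC-like and RC-like cells in each comparison drawn, *Gsta4* in all 4 cell types, and *Gpx8* lies left of 0 over all SC-like cells but right of it within run date 2, which has 2 *Slc26a4*+/+ cells.

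The wider pathway was read from 5 lists, made with earlier results known. In pendrin cells, *Slc26a4*-/- against *Slc26a4*+/+, 1 of 10 other peroxidase and transferase genes above the filter was 2-fold higher and 4 lower (median −0.50). Of 18 genes of glutathione synthesis, recycling and breakdown, 4 were higher and 2 lower (median 0.23). Of 18 peroxiredoxins, thioredoxins, superoxide dismutases and relatives, 5 were higher and 6 lower (median −0.09). For 13 genes of Nrf2 and its usual targets the counts were 3 and 4 (median −0.63), and for 19 genes of selenoprotein supply and synthesis 4 and 2 (median −0.12). In IMC-like cells the same lists had at most 2 genes higher and 3 lower each, of 11 to 17 genes. Within run dates the counts of pendrin cells moved. The selenoprotein list had 10 of 14 genes higher and 1 lower in run date 2 (median 3.44), but 2 of 17 higher and 9 lower in run date 4 (median −1.03). The Nrf2 list had 7 of 10 higher and 1 lower in run date 2 (median 4.84), and 1 of 11 higher and 2 lower in run date 4 (median −0.17). The medians of all genes were 1.17 and 0.01 in these run dates. In run date 2, which held 3 *Slc26a4*+/+ pendrin cells, 51.3% of all genes were 2-fold higher and 24.4% lower. In run date 4 the shares were 26.7% and 26.9%. The pooled counts stand beside the 14.6% and 19.5% of all genes given for pendrin cells and the 10.3% and 15.8% for IMC-like cells.

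Single genes of the lists were named by their rank. *Gpx2*, the epithelial peroxidase, averaged 359 CPM in *Slc26a4*-/- and 72.8 in *Slc26a4*+/+ pendrin cells (log2 ratio 2.28) and was highest in RC-like cells, at 178.5 CPM in *Slc26a4*+/+ mice. *Prdx6*, a peroxiredoxin that reduces phospholipid hydroperoxides, averaged 1261 against 320 CPM. *Gclc*, the catalytic subunit of the rate-limiting step of glutathione synthesis, averaged 22.7 against 1.93 CPM. These 3 genes were also higher within run dates 2 and 4. Genes here and in the next paragraph were named by level or by ratio in these same cells. A direction kept within run dates is therefore no separate support. The pendrin cell values pool 23 SC-like and 15 RC-like *Slc26a4*+/+ cells, and 9 and 13 *Slc26a4*-/- cells. The part of this mix was not tested.

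In the other direction, *Gsr*, the reductase that restores glutathione, averaged 38.1 against 170 CPM in pendrin cells, and *Mgst3*, a microsomal transferase, 2.22 against 23.8 CPM. *Sod1*, the cytosolic superoxide dismutase, averaged 14.7 against 74.9 CPM in pendrin cells and 16.1 against 66.1 CPM in IMC-like cells, and was lower in both run dates in both. *Txnip*, the thioredoxin inhibitor, averaged 2.66 against 104.3 CPM but had a log2 ratio of 0.32 within run date 2. *Mgst3* and *Txnip* passed the filter through the *Slc26a4*+/+ cells alone. *Sod3*, the extracellular superoxide dismutase, averaged 265.4 against 60.98 CPM in IMC-like cells, with an adjusted p of 0.230 in the session test, and *Sod1* one of 0.481.

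Selenium supply had its own pattern over the cell types. *Sepp1*, the selenium transport protein, averaged 5658 CPM in *Slc26a4*+/+ IMC-like cells and 197.5 to 305 CPM in the other 3 types, and it was among the genes most like *Gsta4* and *Gstp1*. *Lrp2*, the endocytic receptor megalin that takes it up, averaged 24872 CPM in MC-like cells, 3387 CPM in those like spindle cells, 1230 in those like root cells and 107.6 in IMC-like cells, the same order as the selenoenzyme *Gpx3*. Between the genotypes the pair parted in SC-like cells, where *Lrp2* averaged 5957 CPM in *Slc26a4*-/- and 3387 in *Slc26a4*+/+ cells, while in RC-like cells it was lower, 99.7 against 1230 CPM, as was *Gpx3*. The MC markers, *Lrp2* among them, summed to 72852 CPM in the highest *Slc26a4*+/+ RC-like cell, against a median of 6245 CPM. The part of that cell in the *Lrp2* mean was not tested. *Sepp1* in IMC-like cells averaged 8326 against 5658 CPM, with an adjusted p of 0.235 in the session test by limma, so it did not pass.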

How the data were processed

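Per the labels and the study's methods, single cells were picked by micropipette, amplified with Smart-Seq2 and quantified with Kallisto on GRCm38 (version and annotation release not given in the sources used here). The authors deposited estimated counts and TPM per transcript for each cell, with 98492 transcripts, and a gene table of estimated counts. The gene-level estimated counts, as deposited, were divided by each cell's total to give CPM. In the gene table, 17 of 298 columns matched no sample here and were not used. TPM, as deposited by the authors, were summed per gene and used to compare genes with each other where TPM are named. The shares and sums of each enzyme family are of CPM. The TPM sum per gene left out 1288 transcripts without a gene (median 0.635% of estimated counts).

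Cells were clustered with Seurat 5.3.0 in R 4.3.3 (2000 variable genes, 10 principal components, resolution 0.8; the members, the pathway genes and genes that the study singles out were kept out where variable), and a cluster was named when 80% of its cells scored highest for 1 marker list, at least 3 of its markers were detected and its leading 10 genes did not go against it. No cell was removed and no doublet caller was run, since cells were picked singly under view. Genotypes came from the labels, which call 40 cells Slc26a4+/-. With no animal named, each genotype was 1 sample: ratios are log2 of (mean CPM + 1), for genes with a mean of at least 10 CPM over the genotypes, and called past 2-fold. IMC-like session means (at least 2 cells, run dates 2 and 4) were tested on log2(mean CPM + 1) with limma 3.58.1, run date as a term and Benjamini-Hochberg adjustment, after a test on simulated data. Where nothing says that sessions came from separate mice, these p-values measure the spread between sessions. Depth ran from 1848 to 7932729 counts, and 20 cells had under 100000. Reads carry no molecular identifiers, so limits from counts of 0 (3 counts) cover counting error only.

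The members and lists were chosen with earlier results of these data known. All 10 members are named. Of each pathway list the rule named the 3 genes highest in Slc26a4+/+ cells and the highest and lowest ratio in pendrin and IMC-like cells, of which a part is given. For likeness it named the 3 highest Spearman correlations among genes with a mean of at least 50 CPM. Alternatives were other pseudocounts, a 50 CPM filter, TPM, medians, session means, other cell type calls, deep cells alone, single run dates and leaving out each session.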

Additional observations from a re-analysis of the deposited data

Results flagged for a closer look

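Over the 7 *Slc26a4*-/- sessions of IMC-like cells, the highest session mean stood far from the next for 3 of the 10 members, by Dixon's criterion. For normally distributed values it marks about 1 group in 20 by chance. It was applied to CPM means, which for *Gpx7* and *Gstm2* were mostly near 0, so that rate does not hold here. Nothing is read from the count. *Gstm5* averaged 177.6 CPM in 3 cells of 31 days, against 77.7 CPM in the next session. *Gstm2* reached 13.99 CPM, against 4.47 in the next. *Gpx7* reached 4.85 CPM, against 0.392 in the next. The *Slc26a4*+/+ sessions were too many and the *Slc26a4*+/- sessions too few for this check.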

How the results depend on the processing

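Among the log2 ratios of *Slc26a4*-/- over *Slc26a4*+/+ pendrin cells, *Gpx3* was −8.16 within run date 4 and −8.30 as a ratio of medians. The 7 *Slc26a4*-/- cells of run date 4 were all RC-like, against 3 SC-like and 5 RC-like *Slc26a4*+/+ cells. The medians pooled 9 SC-like and 13 RC-like *Slc26a4*-/- cells, against 23 and 15 *Slc26a4*+/+ cells. The part of this mix in both values was not tested. *Gstm1* was −0.36 as a ratio of medians, since most cells of every genotype had little of it. *Gpx8* reversed to 4.65 within run date 2, 0.33 with medians and 0.10 in RC-like cells alone, *Gsta4* to 0.83 with medians, and *Gstm5* to −1.19 where each cell took the type of its highest marker score. The 5 lower members became 1 with medians and 3 each with the mean of sessions, in RC-like cells alone and with the 50 CPM filter. The 1 higher member became 2 within run date 2 and 0 each with the marker score and the 50 CPM filter.

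In IMC-like cells *Gstm2* reversed to 1.02 within run date 4. The 1 lower member became 2 within run date 2 and with TPM, and 0 within run date 4, with medians and with the 50 CPM filter. The count of higher members, 0, became 2 within run date 2 and 4 with medians. The *Gpx8* difference of SC-like from RC-like cells reversed to −0.027 without run date 4, and under the marker score 6 of the 10 members had their highest mean in the same cell type. The causes were not tested.

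Leaving out 1 session at a time gave −4.51 to −3.09 for *Gpx3* and −6.94 to −5.51 for *Gstm1* in pendrin cells, −0.98 to −0.74 for *Gsta4* in IMC-like cells, 4 to 5 lower and 1 to 2 higher members in pendrin cells, and 1 to 1 and 0 to 0 in IMC-like cells. *Gpx3* was −4.51 without the *Slc26a4*-/- session of run date 2 at 24 days (4 cells), *Gstm1* −5.51 without the *Slc26a4*+/+ session of run date 1 at 22 days (2 cells), *Gpx7* −3.63 without the *Slc26a4*+/+ session of run date 2 at 40 days (2 cells) and *Gstm5* 2.86 without the *Slc26a4*+/+ session of run date 1 at 32 days (1 cell). A *Slc26a4*+/+ session of run date 4 at 33 days (3 cells) gave the second higher member. In IMC-like cells *Gpx7* was 0.98 and −0.67 without a *Slc26a4*+/+ session of run date 3 at 32 days and a *Slc26a4*-/- session of run date 4 at 33 days, and *Gstm2* −2.86 and −1.30 without a *Slc26a4*-/- session of run date 2 at 25 days and a *Slc26a4*+/+ session of run date 3 at 28 days. Leaving out sessions was chosen after seeing the data.

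No paired analysis was possible because the replicate numbers only name cells and no number is shared between genotypes. With 7 to 15 *Slc26a4*-/- pendrin cells, 11 to 21 IMC-like and 2 to 3 MC-like cells of a run date, few counts per cell for *Gpx7*, *Gstm1* and *Gstm5*, and 1 sample per genotype, small differences were not detectable.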
